A study of Mus musculus with 12 samples.

Results

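Sepp1 encodes selenoprotein P, a plasma protein made mainly by liver that carries selenium to other organs. It was taken by its symbol in the deposited tables, where it is 1 of the 23 selenoprotein genes listed. No measured value entered that rule, but earlier results of these data were known when the gene was chosen. The annotation used for its sequence calls the gene Selenop. Liver ribosome footprints and total mRNA were sequenced from 2 genotypes on 3 diets, as 12 libraries in 12 groups of 1. The TrspA37G mice carried, on FVB/N, a transgene for a mutant selenocysteine (Sec) tRNA in 20 copies, and the wild-type mice were FVB/N without it. Selenium added to the diet was 0, 0.1 or 2.0 ppm in both genotypes, for 6 weeks. The labels give an age of 3 weeks, less than the time on the diets, so age at sampling is not stated here. All livers were frozen and homogenised with cycloheximide, which holds ribosomes on the mRNA. Footprints are the mRNA pieces that ribosomes shield from an RNase. How many mice went into a library, their sex, and whether the endogenous Sec tRNA gene was intact in the transgenic mice were not given in the sources used.

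Sec is inserted at UGA codons that would otherwise end translation, by a dedicated Sec tRNA and a hairpin in the 3' untranslated region of the mRNA. The base changed in TrspA37G lies next to the anticodon, where the normal tRNA carries a modification that the mutant lacks. Most selenoproteins hold a single Sec, whereas selenoprotein P holds 1 in its N-terminal, thioredoxin-like domain and the others in a C-terminal domain that serves selenium transport, with brain and testis as the best known recipients. A ribosome that stops at the first UGA codon makes no selenoprotein P beyond it.

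In the GRCm38 annotation Sepp1 lies on chromosome 15, plus strand, from 3268547 to 3280508, with 5 exons, of which exons 2 to 5 hold coding sequence. The coding sequence has 380 codons, 10 of them UGA codons for Sec, and ends with TAA. The first Sec codon is codon 59, in exon 2. The other 9 are codons 259, 277, 318, 330, 352, 366, 368, 375 and 377, all in exon 5, so that 199 codons separate the first from the second and the last 9 fall within 119 codons. The base after the UGA, which is known to affect how often termination occurs, was C at 5 codons, G at 2, A at 2 and T at 1, which is the first Sec codon. The Sec codons are printed on the coding strand with TGA in capitals, because the deposited windows are cut at the first of them and the 3' window takes in the rest. They are at chr15:3274812-3274874, chr15:3279333-3279407 and chr15:3279510-3279707.
Sepp1 first Sec codon: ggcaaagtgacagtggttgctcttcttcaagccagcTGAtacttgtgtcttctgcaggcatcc
Sepp1 Sec codons 2 to 3: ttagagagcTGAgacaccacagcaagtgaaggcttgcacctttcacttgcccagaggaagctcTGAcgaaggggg
Sepp1 Sec codons 4 to 10: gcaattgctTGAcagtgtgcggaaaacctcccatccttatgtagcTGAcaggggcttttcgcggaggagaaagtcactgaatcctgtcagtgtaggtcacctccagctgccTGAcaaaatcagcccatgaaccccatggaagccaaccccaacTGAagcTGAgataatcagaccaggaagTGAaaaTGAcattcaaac

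Reads were counted over 4 regions of Sepp1. The whole mRNA was taken as 2030 nt, the 1 length up to 3000 nt that gave whole reads in all 6 mRNA libraries. The annotated transcript has 2085 nt. The coding window spanned 1083 nt, which leaves out the ends of the coding sequence. The 5' window of 114 nt lies before the first Sec codon and the 3' window of 951 nt after it, with 18 nt between them. The lengths fit codons 16 to 53, 54 to 59 and 60 to 376, or the same blocks 1 codon later, and the values do not tell which. The 3' window thus holds 8 or 9 of the 9 later Sec codons, and a ribosome that stopped at any of them would also leave the rest of that window bare. Values are scaled to the length of the region and the mapped reads of the library, and are called RPKM for mRNA and RPFKM for footprints. Sepp1 had 37617 to 76642 mRNA reads and 8055 to 27671 coding footprints a library, from totals of 10669213 to 16709701 and 17763406 to 30296837 mapped reads.

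Each group is 1 library, so no comparison has a replicate check. The 95% intervals come from read counts alone, cover counting error only, and hold nothing of the variation between mice. A ratio is called higher or lower when it is at least 1.5-fold and its interval excludes 1. "Rose" and "fell" are used only of such ratios. The 0.1 ppm libraries enter both diet comparisons of a genotype and 1 genotype comparison, so these are not independent. Neither the Sec tRNA gene nor markers of cell types are among the 23 genes, so the genotype and tissue labels could not be checked here. In such tissue samples fewer cells making Sepp1 and less RNA per cell cannot be told apart.

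The ratio of 3' to 5' footprint density compares windows of the same library, so library scaling cancels. In TrspA37G liver it was 0.235 (0.224 to 0.246), 0.263 (0.254 to 0.273) and 0.228 (0.219 to 0.237) at 0, 0.1 and 2.0 ppm selenium. In wild-type liver it was 0.167 (0.160 to 0.175), 0.366 (0.356 to 0.376) and 0.489 (0.471 to 0.507). The wild-type values stand in the order of the diets, while the TrspA37G values stay within a narrow range with the highest at 0.1 ppm. All 6 were below 1, so that ribosomes were denser before the first Sec codon than after it in every library. In order of level, wild type at 0 ppm was lowest, then TrspA37G at 2.0 and 0 ppm, whose intervals overlap, then TrspA37G at 0.1 ppm, and wild type at 0.1 and 2.0 ppm.

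In wild-type liver the ratio fell 2.19-fold at 0 against 0.1 ppm (2.08 to 2.30), where 66.7% of the 12 genes compared were called lower. At 2.0 against 0.1 ppm it was 1.34-fold higher (1.28 to 1.40), which is within the 1.5-fold rule, and 0% of 12 genes were called higher. In TrspA37G liver the ratio was 1.12-fold lower at 0 than at 0.1 ppm (1.06 to 1.19) and 1.16-fold lower at 2.0 than at 0.1 ppm (1.10 to 1.22), neither of them called, where 70.0% of 10 and 9.09% of 11 genes were called lower. Between genotypes it was 1.41-fold higher in TrspA37G than in wild type at 0 ppm (1.32 to 1.5) and 1.39-fold lower at 0.1 ppm (1.33 to 1.45), both within the rule, with 22.2% of 9 genes called higher at 0 ppm and 9.09% of 11 called lower at 0.1 ppm. At 2.0 ppm it fell 2.14-fold in TrspA37G against wild type (2.03 to 2.26), a comparison in which 16.7% of 12 genes were called lower.

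**Figure D1:**
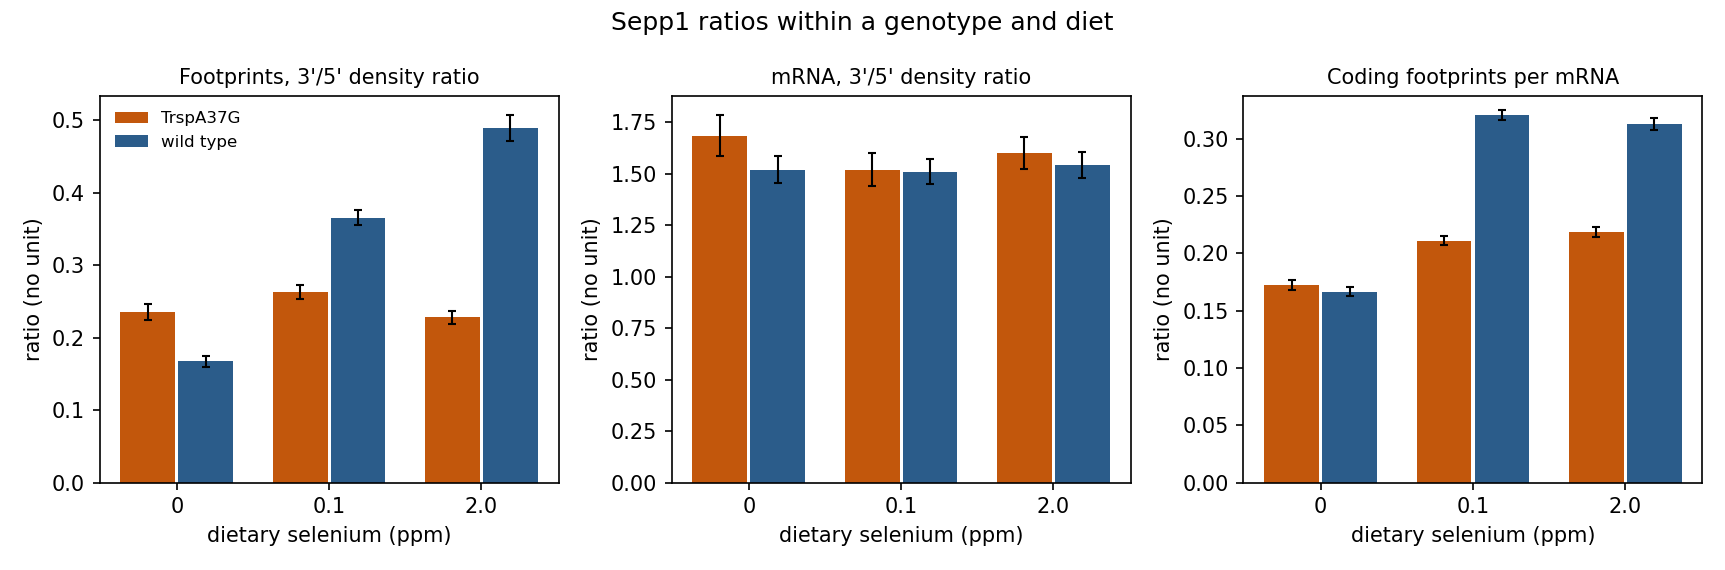
Sepp1 ratios without unit (y axes) by dietary selenium in ppm (x axes), TrspA37G in orange and wild type in blue, 1 library or pair of libraries per bar, with 95% counting intervals. The 3'/5' footprint ratio runs from 0.228 to 0.263 in TrspA37G and from 0.167 to 0.489 in wild type, while the 3'/5' mRNA ratio lies between 1.51 and 1.68 in all groups.

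The same ratio in mRNA reads, where no ribosome is involved, was nearly level across groups. It was 1.68 (1.59 to 1.79), 1.52 (1.44 to 1.60) and 1.60 (1.53 to 1.68) in TrspA37G liver and 1.52 (1.46 to 1.58), 1.51 (1.45 to 1.57) and 1.54 (1.48 to 1.60) in wild-type liver, at 0, 0.1 and 2.0 ppm. No comparison of it was called, and its largest difference was 1.11-fold. Every mRNA ratio was above 1, whereas every footprint ratio was below 1. Dividing the footprint ratio by the mRNA ratio gave 0.140, 0.173 and 0.142 in TrspA37G liver and 0.110, 0.242 and 0.317 in wild-type liver. On this measure wild type fell 2.20-fold at 0 against 0.1 ppm (2.04 to 2.38), where 77.8% of 9 genes were called lower. TrspA37G at 0 against 0.1 ppm had a log2 difference of -0.31 (-0.46 to -0.17), which was not called. At 2.0 ppm TrspA37G fell 2.23-fold against wild type (2.05 to 2.42), where 33.3% of 9 genes were called lower. At 0 and 0.1 ppm the log2 differences between TrspA37G and wild type were 0.34 and -0.48, neither called.

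Other selenoproteins give the setting for these differences. In TrspA37G liver at 0 against 0.1 ppm, 7 of the 9 other genes with enough reads were called lower in the 3'/5' footprint ratio and 1 higher, with a median log2 of -1.40 over the others against -0.17 (-0.25 to -0.08) for Sepp1. Only Seli, an ethanolamine phosphotransferase with its UGA near the C terminus, stood above Sepp1 there, and Dio1, a thyroid hormone deiodinase of liver, was next below at -0.67 (-1.22 to -0.15). In wild-type liver at 0 against 0.1 ppm, 7 of 11 other genes were called lower with a median of -1.23, and Sepp1 at -1.13 (-1.20 to -1.06) lay between Gpx4, the phospholipid hydroperoxide glutathione peroxidase, at -1.23 and Dio1 at -1.10. At 2.0 against 0.1 ppm in wild type the median of the 11 others was -0.21 and Sepp1 at 0.42 had the highest value of 12, although the interval of Selt, an endoplasmic reticulum redox protein, reached from -0.22 to 0.83. With the ratio taken relative to mRNA, Sepp1 stood there at 0.39 (0.28 to 0.49), not called. It was then number 2 from the highest of 9 genes, below Selt, and 1 of the 9 was called higher. The other genes in these comparisons have 1 Sec codon each, whereas the Sepp1 3' window spans several, so levels of the ratio are not measured on like windows.

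The diet response of the ratio was set between genotypes directly. At 0 against 0.1 ppm the log2 response was -0.17 in TrspA37G and -1.13 in wild type, a difference of 0.96 (0.85 to 1.08), and the difference over 9 other genes had a median of -0.01 with 4 of them above 0. At 2.0 against 0.1 ppm the responses were -0.21 in TrspA37G and 0.42 in wild type, a difference of -0.63 (-0.73 to -0.53), with 7 of 10 other genes above 0 and a median of 0.23. These intervals exclude 0 for the libraries at hand and say nothing of the spread between mice.

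**Figure D2:**
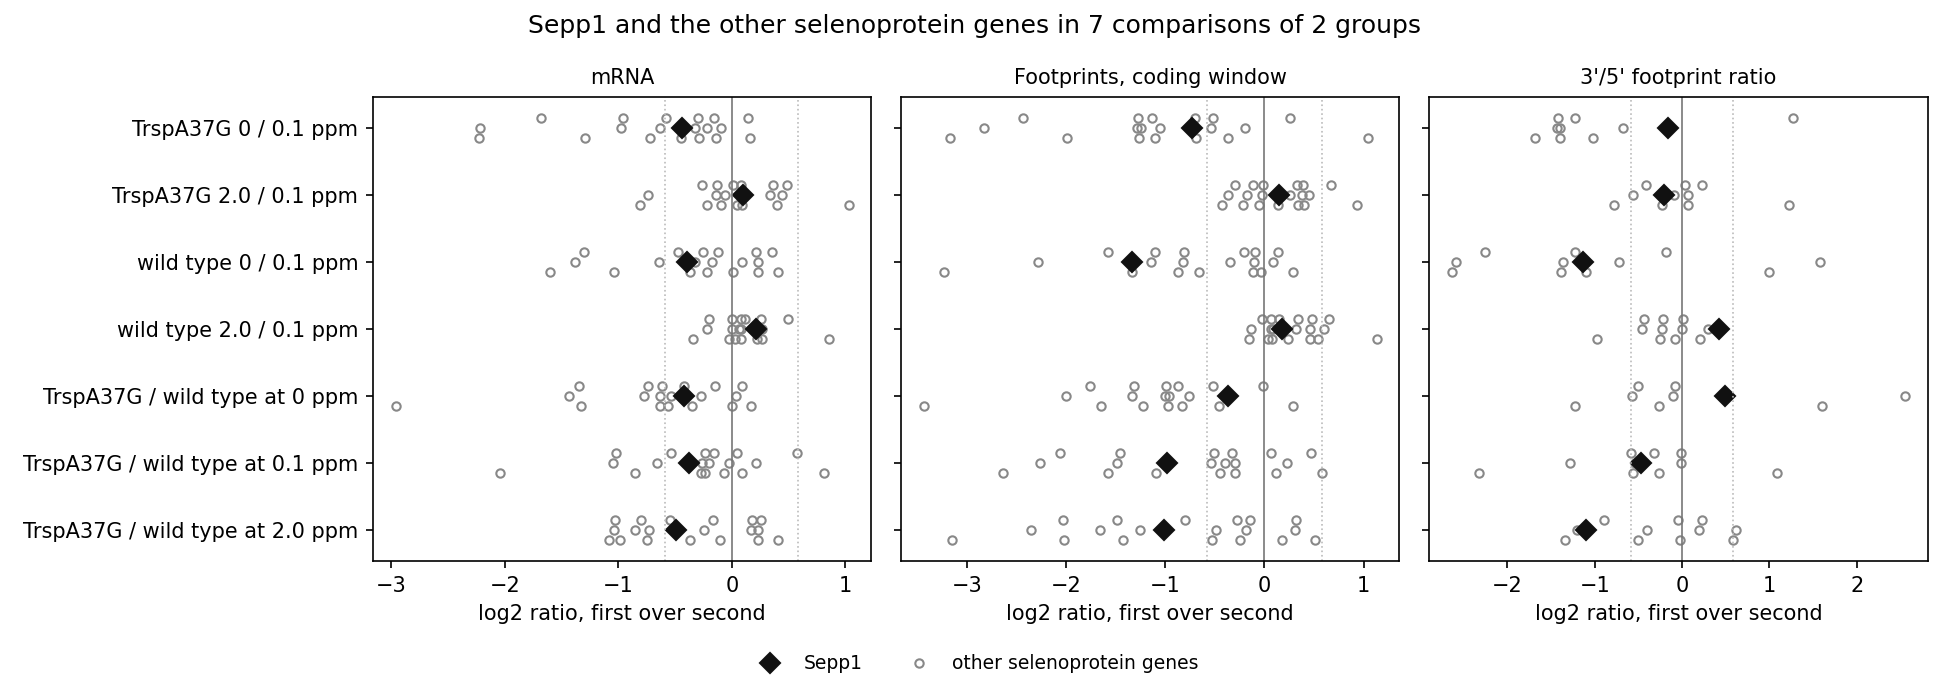
Log2 ratio (x axes) of the first named group over the second in 7 comparisons (y axis), for mRNA, coding footprints and the 3'/5' footprint ratio, with Sepp1 as filled diamonds, other genes that could be compared as open circles, and dotted lines at 1.5-fold. For the 3'/5' ratio Sepp1 lies at -0.17 in TrspA37G at 0 against 0.1 ppm, where the median of the other genes is -1.40, and at -1.13 in wild type, where it is -1.23. A median of all genes was taken for each measure and comparison. Relative to it, Sepp1 changes sign in all panels in TrspA37G at 0 against 0.1 ppm, where the 3'/5' ratio turns to 1.15. In TrspA37G against wild type at 0 ppm it does so for mRNA and coding footprints. In wild type it does so for coding footprints alone at 2.0 against 0.1 ppm. At 0 against 0.1 ppm in wild type it does so for the 3'/5' ratio alone, which turns to 0.05.

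Footprints before the first Sec codon record ribosomes that have started on the mRNA but have not yet met a UGA. In TrspA37G liver their density was 800 RPFKM (769 to 831), 1247 (1210 to 1285) and 1526 (1478 to 1575) at 0, 0.1 and 2.0 ppm, from 2631, 4238 and 3851 reads. In wild-type liver it was 1288 (1246 to 1332), 1952 (1906 to 1999) and 1743 (1686 to 1801), from 3517, 6742 and 3529 reads. As deposited, TrspA37G values stood below wild type at each diet, with the smallest gap at 2.0 ppm, and the wild-type value was highest at 0.1 ppm. Against 0.1 ppm, 5' footprints at 0 ppm fell 1.56-fold in TrspA37G (1.48 to 1.64), where 44.4% of 18 genes were called lower, and 1.52-fold in wild type (1.45 to 1.58), where it was 31.6% of 19 genes. Scaled to the median of all genes, these log2 differences became -0.01 and -0.35, neither called. That median is taken for each measure and comparison, so it sets Sepp1 against the selenoprotein genes and is no library scaling. TrspA37G fell against wild type by 1.61-fold at 0 ppm (1.53 to 1.70) and 1.57-fold at 0.1 ppm (1.51 to 1.63), with 56.2% of 16 and 31.6% of 19 genes called lower. Neither was called under the median scaling, which put them at log2 0.21, a change of sign, and -0.24. At 2.0 ppm the log2 difference was -0.19 (-0.26 to -0.13), and 0.30 under that scaling.

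Footprints after the first Sec codon record ribosomes that passed it. Their density was 188 RPFKM (183 to 193), 328 (322 to 335) and 348 (340 to 356) in TrspA37G liver at 0, 0.1 and 2.0 ppm, from 5154, 9309 and 7323 reads. In wild-type liver it was 215 (209 to 221), 714 (704 to 724) and 852 (838 to 866), from 4903, 20566 and 14394 reads. As deposited, the genotypes stood close at 0 ppm and far apart on both diets with selenium. At 0 against 0.1 ppm the density fell 1.75-fold in TrspA37G (1.69 to 1.81), with 81.8% of 11 genes called lower, and 3.32-fold in wild type (3.21 to 3.42), with 76.9% of 13. The median of all genes compared was itself log2 -2.06 in TrspA37G and -1.09 in wild type. Scaled to it, Sepp1 in TrspA37G stood at 1.26, called higher, so it fell less than the median gene. In wild type it stayed lower, at -0.64. TrspA37G fell 2.17-fold against wild type at 0.1 ppm (2.12 to 2.23) and 2.45-fold at 2.0 ppm (2.38 to 2.52), with 50.0% of 12 and 61.5% of 13 genes called lower, and under that scaling neither was called, at log2 -0.27 and -0.04. At 0 ppm the difference was log2 -0.20 (-0.25 to -0.14) as deposited and 1.18, called higher, under the scaling.

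**Figure D3:**
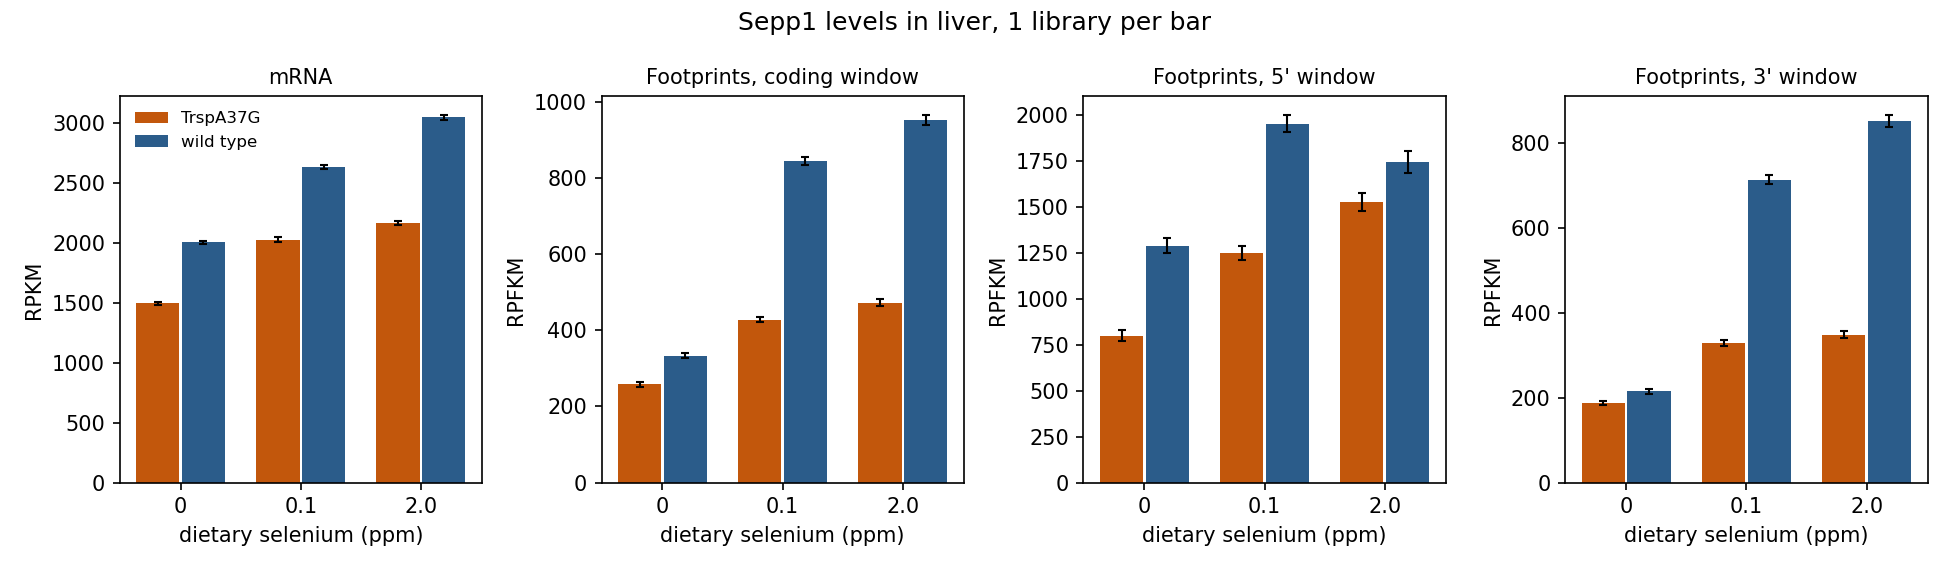
Sepp1 mRNA in RPKM and footprint densities in RPFKM (y axes, each with its own range from 0) by dietary selenium in ppm (x axes), TrspA37G in orange and wild type in blue, 1 library per bar with 95% counting intervals. As deposited, 3' footprints are 188 RPFKM in TrspA37G and 215 in wild type at 0 ppm, and 348 and 852 at 2.0 ppm. Relative to the median of all genes in each measure, the differences at 0 ppm turn round in all 4 panels.

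Setting each window against the mRNA of the same genotype and diet separates the 2 sides of the first Sec codon. These measures were added after the values had been seen. Footprints of the 5' window per mRNA were 0.535, 0.616 and 0.706 in TrspA37G liver and 0.643, 0.742 and 0.572 in wild-type liver at 0, 0.1 and 2.0 ppm, and none of the 7 comparisons was called. In the direction of Sepp1, the genes called there were 11.1% of 18 (TrspA37G at 0 against 0.1 ppm), 10.5% of 19 (wild type at 0 against 0.1 ppm), 6.25% of 16 and 15.8% of 19 (TrspA37G against wild type at 0 and 0.1 ppm) and 0% in the other 3. Footprints of the 3' window per mRNA were 0.126, 0.162 and 0.161 in TrspA37G liver and 0.108, 0.271 and 0.280 in wild-type liver. The 3' values form a high pair, wild type on selenium, and 4 lower ones, a grouping that the 5' values do not show. Per mRNA, 3' footprints fell 2.52-fold in wild type at 0 against 0.1 ppm (2.44 to 2.61), with 76.9% of 13 genes called lower, and this difference was log2 -0.06 and not called under the median scaling. In TrspA37G at 0 against 0.1 ppm the log2 difference was -0.37 (-0.42 to -0.31), not called, and 0.88, called higher, under that scaling. TrspA37G fell against wild type by 1.67-fold at 0.1 ppm (1.63 to 1.72) and 1.74-fold at 2.0 ppm (1.69 to 1.79), with 50.0% of 12 and 53.8% of 13 genes called lower. Under that scaling these were log2 0.00 and 0.05, close to the median of the genes compared. At 0 ppm TrspA37G stood at log2 0.23 (0.17 to 0.28) against wild type, and at 0.99, called higher, under that scaling.

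The share of Sepp1 coding footprints that lay in the 5' window gives the same division in reads. It was 32.7% (31.6 to 33.7), 30.7% (29.9 to 31.5) and 34.0% (33.1 to 34.9) in TrspA37G liver, and 40.7% (39.7 to 41.8), 24.4% (23.9 to 24.9) and 19.3% (18.7 to 19.9) in wild-type liver, with exact binomial intervals. The 5' window is 10.5% of the coding window by length, and held 6.62% to 7.31% of the mRNA reads there.

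The 18 nt between the windows include the first Sec codon in either placement and were read by difference from the coding window. They held 3.35% (2.97 to 3.77), 1.85% (1.64 to 2.09) and 1.28% (1.08 to 1.51) of Sepp1 coding footprints in TrspA37G liver at 0, 0.1 and 2.0 ppm, from 270, 256 and 145 reads. In wild-type liver the shares were 2.54% (2.21 to 2.89), 1.31% (1.18 to 1.45) and 2.06% (1.86 to 2.28), from 219, 363 and 377 reads. By length the stretch is 1.66% of the window, and it took 0.371% to 0.739% of the mRNA reads. The lowest of these mRNA shares, 0.371% (0.288 to 0.471) from 67 reads, was that of TrspA37G at 0 ppm. The next was 0.572% (0.497 to 0.655), in wild type at 2.0 ppm. In TrspA37G the share was highest without selenium and lowest at 2.0 ppm, and in wild type it was lowest at 0.1 ppm.

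As a density, the stretch had 520 RPFKM (460 to 586), 477 (420 to 539) and 364 (307 to 428) in TrspA37G liver and 508 (443 to 580), 666 (599 to 738) and 1179 (1063 to 1304) in wild-type liver. As deposited, footprints in the stretch did not differ between genotypes beyond counting error at 0 ppm, at a log2 difference of 0.03 (-0.23 to 0.30). At 2.0 ppm they stood 3.24-fold apart, with TrspA37G the lower. The mRNA density of the stretch at 0 ppm was 300 RPKM (233 to 381) in TrspA37G and 672 (582 to 771) in wild type. At 2.0 ppm it was 807 (697 to 931) and 927 (805 to 1063). Relative to the 5' window of the same library, the density was 0.650, 0.383 and 0.238 in TrspA37G liver and 0.394, 0.341 and 0.677 in wild-type liver. Relative to the 3' window it was 2.77, 1.45 and 1.05 in TrspA37G liver and 2.36, 0.933 and 1.38 in wild-type liver, with the highest value of each genotype on the diet without selenium. Relative to the 5' window, TrspA37G stood at log2 0.72 (0.45 to 0.99) against wild type at 0 ppm, called higher. At 0.1 and 2.0 ppm that difference was 0.17, not called, and -1.50, called lower. Relative to the 3' window the difference at 0 ppm was 0.23 (-0.03 to 0.49), not called. At 0.1 ppm it was 0.64 (0.41 to 0.87), called higher, and at 2.0 ppm -0.40 (-0.68 to -0.12), not called. These differences were not set against mRNA, and no share of other genes called is given for this stretch. Joining the reads of the stretch to either window left every comparison of the 3'/5' ratio on its side of the rule.

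**Figure D4:**
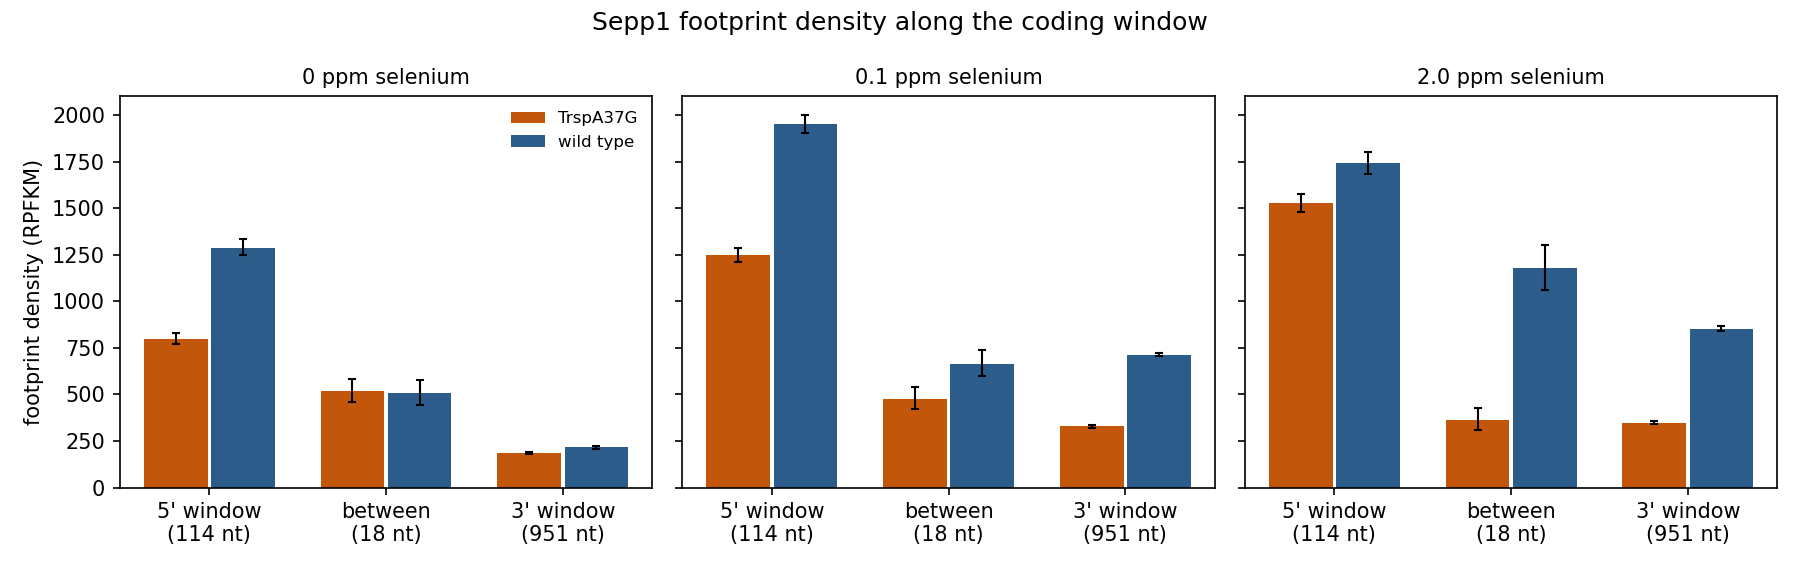
Sepp1 footprint density in RPFKM (y axis) in the 5' window, the stretch between the windows and the 3' window (x axis) at 0, 0.1 and 2.0 ppm selenium, TrspA37G in orange and wild type in blue, 1 library per bar with 95% counting intervals. At 2.0 ppm the 5' windows stand at 1526 in TrspA37G and 1743 in wild type, and the 3' windows at 348 and 852.

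Sepp1 mRNA was 1494 RPKM (1479 to 1509), 2025 (2006 to 2044) and 2163 (2145 to 2180) in TrspA37G liver at 0, 0.1 and 2.0 ppm, and 2003 (1988 to 2018), 2630 (2612 to 2649) and 3045 (3023 to 3067) in wild-type liver. As deposited, the values of both genotypes stand in the order of the diets, and TrspA37G is below wild type at each diet. From low to high the groups were TrspA37G at 0 ppm, then wild type at 0 ppm and TrspA37G at 0.1 ppm, whose intervals overlap, then TrspA37G at 2.0 ppm and wild type at 0.1 and 2.0 ppm. None of the 7 comparisons was past 1.5-fold, while 30.0% of 20 genes were called lower in TrspA37G at 0 against 0.1 ppm and 20.0% in wild type. For TrspA37G against wild type these shares were 45.0%, 20.0% and 30.0% at 0, 0.1 and 2.0 ppm. As deposited, the widest Sepp1 difference was 1.41-fold lower in TrspA37G than in wild type at 2.0 ppm (1.39 to 1.42). Scaled to the median of all genes it was log2 -0.06. Under that scaling the mRNA difference changed sign in TrspA37G at 0 against 0.1 ppm, to log2 0.01, and in TrspA37G against wild type at 0 ppm, to 0.13. Outside the coding window, over 947 nt, mRNA density was 1666, 2351 and 2560 RPKM in TrspA37G liver and 2217, 2965 and 3445 RPKM in wild-type liver, in the same order as over the whole mRNA.

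Per length, Sepp1 was the most abundant of the 23 mRNAs in all 6 groups. The next was Sephs2, the selenophosphate synthetase that feeds Sec synthesis, in TrspA37G at 0 ppm with 546 RPKM (538 to 555), and Gpx1, the cytosolic glutathione peroxidase, in the other 5. Gpx1 had 1125 and 1185 RPKM in TrspA37G at 0.1 and 2.0 ppm, and 893, 2327 and 2437 RPKM in wild type at 0, 0.1 and 2.0 ppm, each with an interval clear of that of Sepp1.

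Over the coding window Sepp1 had 258 RPFKM (252 to 263), 427 (420 to 435) and 472 (463 to 481) in TrspA37G liver, and 333 (326 to 340), 843 (833 to 853) and 951 (938 to 965) in wild-type liver. All intervals were separate, and all TrspA37G values lay below those of wild type on selenium. The 0 against 0.1 ppm difference was log2 -0.73 in TrspA37G and -1.34 in wild type, both called lower, with 70.0% and 55.0% of 20 genes called lower. TrspA37G was at log2 -0.98 and -1.01 against wild type at 0.1 and 2.0 ppm, both called, with 40.0% and 50.0% of 20 genes called lower, and at -0.37 at 0 ppm, which was not called. Under the median scaling the TrspA37G difference at 0 against 0.1 ppm turned to 0.35 and that against wild type at 0 ppm to 0.59, called higher, and the calls at 0.1 and 2.0 ppm were lost, at -0.50 and -0.35. This window mixes densities on both sides of the first Sec codon, and 87.8% of its length is the 3' window. Sepp1 ranked 2nd or 3rd of 23 genes in this density. Gpx1 was next above it in TrspA37G, with 283, 461 and 506 RPFKM, and in wild type on selenium, with 2863 and 4501 RPFKM. In wild type at 0 ppm the gene next above was Sepx1, a methionine sulfoxide reductase, with 585 RPFKM.

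Coding footprints per mRNA, the translational efficiency, were 0.172 (0.168 to 0.177), 0.211 (0.207 to 0.215) and 0.218 (0.214 to 0.223) in TrspA37G liver and 0.166 (0.163 to 0.170), 0.321 (0.316 to 0.325) and 0.312 (0.307 to 0.317) in wild-type liver. As deposited, the log2 difference between TrspA37G and wild type was 0.05 at 0 ppm, -0.60 at 0.1 ppm and -0.52 at 2.0 ppm. Under the median scaling it was 0.31, -0.31 and -0.05, so the order of the gaps differs with the selenoprotein genes as the reference. In every group Sepp1 was 15th of the 16 genes ranked, above Sephs2, whose values ran from 0.0646 to 0.298. The gene next above was Selk, which sits in the endoplasmic reticulum membrane, in wild type and in TrspA37G at 0 ppm, with intervals that include the Sepp1 value, and Gpx1 or Dio1 in TrspA37G on selenium. In wild type at 0 against 0.1 ppm it fell 1.93-fold (1.88 to 1.98), with 30.0% of 20 genes called lower, and was at log2 -0.44 and not called under the median scaling. At 0.1 ppm TrspA37G fell 1.52-fold against wild type (1.48 to 1.56), where again 30.0% of 20 genes were called lower. That call was lost with mRNA counted over the coding window, at log2 -0.55, and under the median scaling, at -0.31.

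Of all footprints in the coding windows of the 23 genes, Sepp1 took 33.3% (32.7 to 33.9), 35.4% (35.0 to 35.9) and 35.7% (35.1 to 36.2) in TrspA37G liver, against 23.1% (22.7 to 23.5), 26.8% (26.5 to 27.1) and 22.5% (22.2 to 22.8) in wild-type liver. Of mRNA reads in the same windows it took 46.0%, 41.0% and 41.0% in TrspA37G liver and 41.4%, 38.4% and 40.2% in wild-type liver. After the Sec codon its share of footprints was 75.0% (74.0 to 76.1), 62.0% (61.2 to 62.8) and 57.3% (56.5 to 58.2) in TrspA37G liver and 56.5% (55.5 to 57.6), 49.9% (49.5 to 50.4) and 48.4% (47.8 to 49.0) in wild-type liver. Before it the share was 22.6%, 25.2% and 28.3% in TrspA37G liver and 22.4%, 26.7% and 19.8% in wild-type liver. These are shares of reads, so long windows weigh more, and they depend on the other genes as much as on Sepp1. In both genotypes the share after the Sec codon was highest on the diet without selenium.

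The mean log2 difference between TrspA37G and wild type over the 3 diets was -0.43 ± 0.06 for mRNA, -0.79 ± 0.36 for coding footprints, -0.51 ± 0.28 for 5' footprints and -0.87 ± 0.59 for 3' footprints (SD over 3 diets), with 3 of 3 diets below 0 in each. These are values as deposited. Under the median scaling the means were -0.03 for mRNA, -0.08 for coding footprints, 0.09 for 5' and 0.29 for 3' footprints, and 0 ppm was above 0 in each. The exact two-sided permutation test, with genotype labels exchanged within diets in 8 arrangements, gave p = 0.25 for each, the smallest value this layout allows. For translational efficiency the mean was -0.36 ± 0.36 (exact permutation p = 0.5) and for the 3'/5' footprint ratio -0.36 ± 0.80 (exact permutation p = 0.75), with 2 of 3 diets below 0 in both. The mean for translational efficiency was -0.01 under the median scaling. The 3'/5' ratio does not depend on library scaling, but its place among the genes can be given in the same way. Relative to the median of all genes, its log2 differences were 0.59, 0 and -0.88 at 0, 0.1 and 2.0 ppm. At 0.1 ppm Sepp1 was itself the median gene.

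Across the 6 mRNA libraries, the genes whose log2 values ran most like those of Sepp1 among 18 compared were Gpx1, Txnrd3, the thioredoxin and glutathione reductase, and Sepw1, a small redox protein, with Pearson r of 0.98, 0.95 and 0.95 and Spearman rho of 1, 0.83 and 1. Across the 6 footprint libraries, among 15 genes, they were Sephs2, Txnrd3 and Sep15, an endoplasmic reticulum protein, with r of 0.94, 0.92 and 0.91 and rho of 0.94, 0.71 and 1. The 6 points share the total of each library and differ in diet and genotype, so these values are descriptions.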

How the data were processed

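Per the labels' protocols, footprints were made with RNase 1 and isolated as monosomes, and libraries used a small RNA kit. Per the submitters' processing notes, reads were mapped with Bowtie to mm9. Versions, trimming and filters were not stated there. Per the file headers, the authors gave RPKM for mRNA and RPFKM, the same unit over footprints, per region length and mapped reads, in 4 tables. Such values share 1 total per library, so a few abundant RNAs can move all others. Whole reads were recovered, and all 795 values above 0 came out whole within 1e-06. For 641 of them the region length was the annotated one. For the other 154, which include all whole-mRNA values, it was chosen as the smallest that gave whole reads, so these are no check. Library totals were found from the coding windows of the other genes, with Sepp1 left out. In the 3 footprint tables, 1 column is called mRNA in one header line and RPFKM in another, and was read as footprints.

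Ratios used the deposited values with no pseudocount. Intervals of single densities are exact Poisson. Those of ratios are exact conditional (Clopper-Pearson), and for ratios of ratios the conditional odds ratio, or a log-normal interval above 2000 reads. Ratios of more terms, such as differences in the 3'/5' ratio relative to mRNA, always took the log-normal interval. Genes entered with at least 10 reads over the libraries and 1 in each. Regions and sequences came from GENCODE M21 (GRCm38), as the files (mm9) hold no coordinates. Code was run in Python 3.11.15 with SciPy 1.17.1 and tested on simulated reads. Named genes are Sepp1, its neighbours in rank and the 3 genes most like it. The gene, lists and comparisons were chosen with earlier results of these data known. The window measures per mRNA, the mRNA 3'/5' ratio and the values between the windows were added after the values had been seen.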

Additional observations from a re-analysis of the deposited data

Results flagged for a closer look

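The following differences between genotypes or diets stood out because every library of one side moved one way and that of the other side the opposite way, each side being 1 library or 1 pair. None was tested across animals, and with 1 library a group none could be. At 2.0 against 0.1 ppm, 5' footprints of Sepp1 differed in response by log2 0.46 between TrspA37G, where they were higher at 2.0 ppm, and wild type, where they were lower. The 3'/5' footprint ratio differed by -0.63 and the ratio relative to mRNA by -0.67 in the same comparison, with TrspA37G below 0 and wild type above. Translational efficiency differed by 0.0859 there, with values of 0.05 in TrspA37G and -0.04 in wild type.

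The sign of TrspA37G against wild type differed between diets. For the 3'/5' footprint ratio the log2 difference at 0 ppm exceeded that at 0.1 ppm by 0.96 and that at 2.0 ppm by 1.59. For the ratio relative to mRNA these were 0.83 and 1.5, and for translational efficiency 0.66 and 0.57. The 3'/5' ratios do not depend on library scaling. Mapped footprints at 0 ppm were 28864210 in TrspA37G and 23945053 in wild type, and the part of depth in these differences was not tested.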

How the results depend on the processing

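Adding a pseudocount of 1 (70 results), dropping the read minimum (49), leaving out the reads between the windows (14) or joining them to the 5' or 3' window (7 each) left each of those results with its direction and call. Scaling each comparison to the median of all genes compared mattered most. That median was between log2 -0.55 and 0.08 for mRNA, -1.08 and 0.21 for coding footprints, -0.89 and 0.27 for 5' footprints, and -2.06 and 0.29 for 3' footprints. All genes there are selenoproteins, and a median was taken for each measure and comparison, so these values place Sepp1 among them and are no library scaling. At 0 against 0.1 ppm the median of 3' footprints was itself log2 -2.06 in TrspA37G and -1.09 in wild type. In the 3'/5' footprint ratio, which needs no library scaling, the medians of the other genes there were -1.40 and -1.23. Relative to the median of all genes, Sepp1 in this ratio stood at 1.15 in TrspA37G, a change of sign. In wild type it stood at 0.05, within the 1.5-fold rule. What moved the median was not tested. The log2 values relative to it that reversed or lost their call, apart from those of the 3'/5' ratios, are listed here. In TrspA37G at 0 against 0.1 ppm they were 0.00558 (mRNA), 0.35 (coding footprints), -0.00654 (5'), 1.26 (3', called higher), 0.0148 (translational efficiency) and 0.88 (3' per mRNA, called higher). At 2.0 against 0.1 ppm they were -0.19 for 3' footprints in TrspA37G, and in wild type -0.0341 for coding and -0.0347 for 3' footprints and -0.16 for 3' per mRNA. In wild type at 0 against 0.1 ppm they were -0.35 (5') and -0.44 (translational efficiency), with 3' per mRNA at -0.06. For TrspA37G against wild type they were 0.13 (mRNA), 0.59 (coding, called higher), 0.21 (5'), 1.18 (3', called higher), 0.0119 (5' per mRNA) and 0.99 (3' per mRNA, newly called higher) at 0 ppm. At 0.1 ppm they were -0.50 (coding), -0.24 (5'), -0.27 (3'), -0.31 (translational efficiency) and 0.00258 (3' per mRNA), and at 2.0 ppm -0.35 (coding), 0.30 (5'), -0.0416 (3') and 0.0475 (3' per mRNA). The diet response in TrspA37G minus wild type turned to 0.16 (mRNA, 0 ppm), 0.34 (5' footprints, 0 ppm) and 0.0384 (coding, 2.0 ppm), and the genotype means to 0.0911 (5') and 0.29 (3'). With mRNA counted over the coding window, translational efficiency of TrspA37G against wild type at 0.1 ppm was -0.55, no longer called, and 3' per mRNA in TrspA37G at 2.0 against 0.1 ppm 0.0222. The cause of these shifts was not tested.

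Leaving out each diet in turn, the genotype mean of the 3'/5' footprint ratio ran from -0.79 to 0.01 (0.00850 without 2.0 ppm, so its sign rests on that diet), that of the ratio relative to mRNA from -0.82 to -0.07, that of mRNA from -0.46 to -0.40, that of coding footprints from -0.996 to -0.68, that of 5' footprints from -0.67 to -0.42, that of 3' footprints from -1.21 to -0.66 and that of translational efficiency from -0.56 to -0.23. Groups of 1 library leave no replicate numbers to pair, and the genotypes were paired by diet in the permutation test. Depth limits the 18 nt between the windows most, with 145 to 377 footprints.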
